A study of Mus musculus with 12 samples.

Results

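The genes described here are the components and products of the inflammasome that the expression tables name: the sensors Nlrp3 and Aim2, the adaptor Pycard, the inflammatory caspases Casp1 and Casp4, the pore-forming protein gene Gsdmd, the cytokine genes Il1a, Il1b and Il18, and Il18bp, whose product neutralizes interleukin-18. They were found by their gene symbols, and all 10 were present among the 25124 genes of each of the 2 tables.

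An inflammasome is a protein complex that a sensor such as NLRP3 or AIM2 builds around the adaptor ASC, the product of Pycard, after it detects cell damage or microbial material. The complex activates caspase-1, which cuts the precursors of interleukin-1 beta and interleukin-18 into their active forms and cuts gasdermin D, whose freed end forms pores in the cell membrane and ends in the lytic death called pyroptosis. Caspase-11, encoded in the mouse by Casp4, cuts gasdermin D without that complex, and in the retina these genes have been studied mainly in microglia, Muller glia and infiltrating myeloid cells.

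Poly-adenylated RNA of whole retina from wild-type C57BL/6J mice was sequenced in 12 libraries, 2 in each of 6 groups. In the first table, the retinas came from mice aged 3 or 18 months, 2 days after intraocular pressure (IOP) had been raised hydrostatically to 30 mmHg for 1 hour in a single eye, and the untreated fellow eyes served as controls (named 3mo control, 18mo control, 3mo IOP and 18mo IOP). In the second table, mice that were 3 months old at the start received 4 such elevations, biweekly, and the retinas were collected 2 days after the fourth (4xIOP and 4xIOP control). The controls therefore carry whatever the procedure on the other eye does to the animal as a whole, no eye is tied to its fellow by the labels, and the labels do not say how many animals gave each library, so the p-values below measure the spread between libraries only.

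The libraries held 39800000 to 59500000 mapped tags each, of which 44.2% to 71.5% fell in exons of the counted transcripts. Every library expressed Gnat1, which encodes the transducin subunit of rod photoreceptors, at 1031 to 5669 FPKM (fragments per kilobase of transcript and mapped library size). The libraries differed in transcript length. Transcripts under 1000 bases had a median FPKM 3.33 times that of transcripts of 4000 bases or more in 3mo control replicate 2. This ratio was 1.53 in the other 3mo control library, 2.43 and 2.66 in 3mo IOP and 1.00 to 1.15 in the 18-month libraries. Every 3mo control and 3mo IOP library thus lay above every 18-month library. Summed markers of the retinal pigment epithelium (8 genes) reached 173 to 433 FPKM in the 3mo control and 3mo IOP libraries and 1.45 to 9.94 FPKM in the 18-month libraries, so transcripts of this neighbouring tissue moved with age in the first table. In the second table they summed to 26.4 and 36.0 FPKM in 4xIOP control and to 2.7 and 5.84 in 4xIOP. The part of these differences in the results below was not tested, but each count was also taken without each library and with the length trend removed.

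Coordinates are those of the tables, on mm10. Casp1 (chr9:5298517-5307281, plus strand) and Casp4 (chr9:5308849-5336791, plus strand) are neighbours, with 1567 bases between them, and Il1a (chr2:129299610-129309972, minus strand) lies 54605 bases from Il1b (chr2:129364578-129371139, minus strand). Nlrp3 is at chr11:59541569-59566953, Aim2 at chr1:173420604-173466036, Pycard at chr7:127991373-127993867, Gsdmd at chr15:75862339-75867404, Il18 at chr9:50554700-50581841 and Il18bp at chr7:102015074-102018232. Il1a, Il1b and Il18 overlap genes on the opposite strand (Gm14023, Il1bos, and Tex12 with Bco2), and exonic reads had been counted by strand. The 2 tables used different transcripts for Il18bp, of 1446 and 1473 bases.

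Because the neighbours Casp1 and Casp4, and likewise Il1a and Il1b, are compared below, the sequences around their transcription starts are printed with that of Nlrp3. Each runs from 250 bases before the start to 50 bases after it on the strand of the gene, from RefSeq on GRCm38.p6, which holds such an entry at the start of the counted transcript for 9 of the 10 genes. Capitals mark matches, on either strand, to the consensus of the kappaB element or to the AP-1 element TGANTCA.
Casp1, chr9:5298267-5298566: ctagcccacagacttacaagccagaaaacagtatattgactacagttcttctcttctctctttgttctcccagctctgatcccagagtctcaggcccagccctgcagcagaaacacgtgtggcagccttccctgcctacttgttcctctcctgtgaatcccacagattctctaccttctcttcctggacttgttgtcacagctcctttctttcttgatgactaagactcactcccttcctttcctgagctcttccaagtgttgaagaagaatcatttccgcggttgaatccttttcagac
Casp4, chr9:5308599-5308898: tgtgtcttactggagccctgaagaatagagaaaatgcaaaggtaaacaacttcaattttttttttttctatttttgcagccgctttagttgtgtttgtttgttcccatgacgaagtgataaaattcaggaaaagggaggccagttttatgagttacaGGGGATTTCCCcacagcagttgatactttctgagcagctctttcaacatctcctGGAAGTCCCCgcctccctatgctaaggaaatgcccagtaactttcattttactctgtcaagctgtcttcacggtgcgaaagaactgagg
Il1a, chr2:129309923-129310222: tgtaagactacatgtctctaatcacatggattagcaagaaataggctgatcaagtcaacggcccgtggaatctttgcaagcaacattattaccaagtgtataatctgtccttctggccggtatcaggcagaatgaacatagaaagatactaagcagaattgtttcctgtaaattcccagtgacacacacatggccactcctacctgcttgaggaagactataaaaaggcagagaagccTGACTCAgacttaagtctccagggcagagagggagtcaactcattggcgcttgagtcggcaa
Il1b, chr2:129371090-129371389: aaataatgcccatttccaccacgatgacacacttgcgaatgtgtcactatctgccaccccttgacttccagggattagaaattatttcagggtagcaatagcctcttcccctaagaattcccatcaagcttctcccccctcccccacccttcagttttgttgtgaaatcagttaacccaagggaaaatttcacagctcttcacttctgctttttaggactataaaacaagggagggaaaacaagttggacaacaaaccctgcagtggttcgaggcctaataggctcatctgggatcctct
Nlrp3, chr11:59541319-59541618: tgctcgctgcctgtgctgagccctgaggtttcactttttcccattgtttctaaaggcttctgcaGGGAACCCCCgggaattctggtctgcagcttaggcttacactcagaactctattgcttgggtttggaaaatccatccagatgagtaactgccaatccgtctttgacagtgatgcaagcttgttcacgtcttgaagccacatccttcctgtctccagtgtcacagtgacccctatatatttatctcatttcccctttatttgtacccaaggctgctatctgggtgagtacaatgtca
Casp4 held kappaB matches at bases -93 to -83, where overlapping matches on both strands were counted together, and at -39 to -30, whereas its neighbour Casp1 held none. Il1a held an AP-1 match at -12 to -6, whereas Il1b held neither element in this window, and Nlrp3 held a kappaB match at -186 to -177 that reads on both strands. Of all 32851 promoter sequences of this length, 8.46% held a kappaB match and 7.81% an AP-1 match. The interferon-stimulated response core GAAANNGAAA, found in 3.44% of them, and the STAT element TTCNNNGAA, found in 8.3%, were in none of the 9 windows. These are matches of letters in a short window, and whether any factor binds there was not measured.

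In 3mo control retina the genes spanned a wide range of FPKM, a scale per transcript length, though not corrected for the balance of short and long transcripts in which these libraries differed, so the order of genes of unlike length (1138 bases for Il18, 3917 for Nlrp3) is a description. Il18 was highest at 8.89 ± 3.41 FPKM (SD, n = 2), followed by Il18bp at 1.66 ± 0.0764, Aim2 at 0.782 ± 0.0269 and Pycard at 0.511 ± 0.306, and the ranges of the first 3 did not overlap with the next gene in order. Gsdmd, Casp1, Il1a, Casp4, Nlrp3 and Il1b followed at 0.293 down to 0.018 FPKM, and each of these overlapped with its neighbour in the order. In 18mo control retina, Il1a stood first at 6.62 ± 1.39 FPKM, with a range that overlapped that of Il18 (5.86 ± 0.957), and Nlrp3 had moved up to the fourth place at 1.33 ± 0.129. In 4xIOP retina Il1b was second, at 4.45 ± 0.39 FPKM, within the range of Il18bp (5.22 ± 2.11), while Nlrp3 and Il1a were last at 0.297 ± 0.172 and 0.254 ± 0.0516. Il1a, first by mean FPKM in 18mo control and 18mo IOP retina, was thus last after 4 elevations. It was also low in the order in 3mo control, 3mo IOP and 4xIOP control retina. In 18mo IOP replicate 2, Il1a (5.34 FPKM) was below Il18bp (8.71) and Il18 (7.02). The plot of FPKM by library shows each gene.

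**Figure D1:**
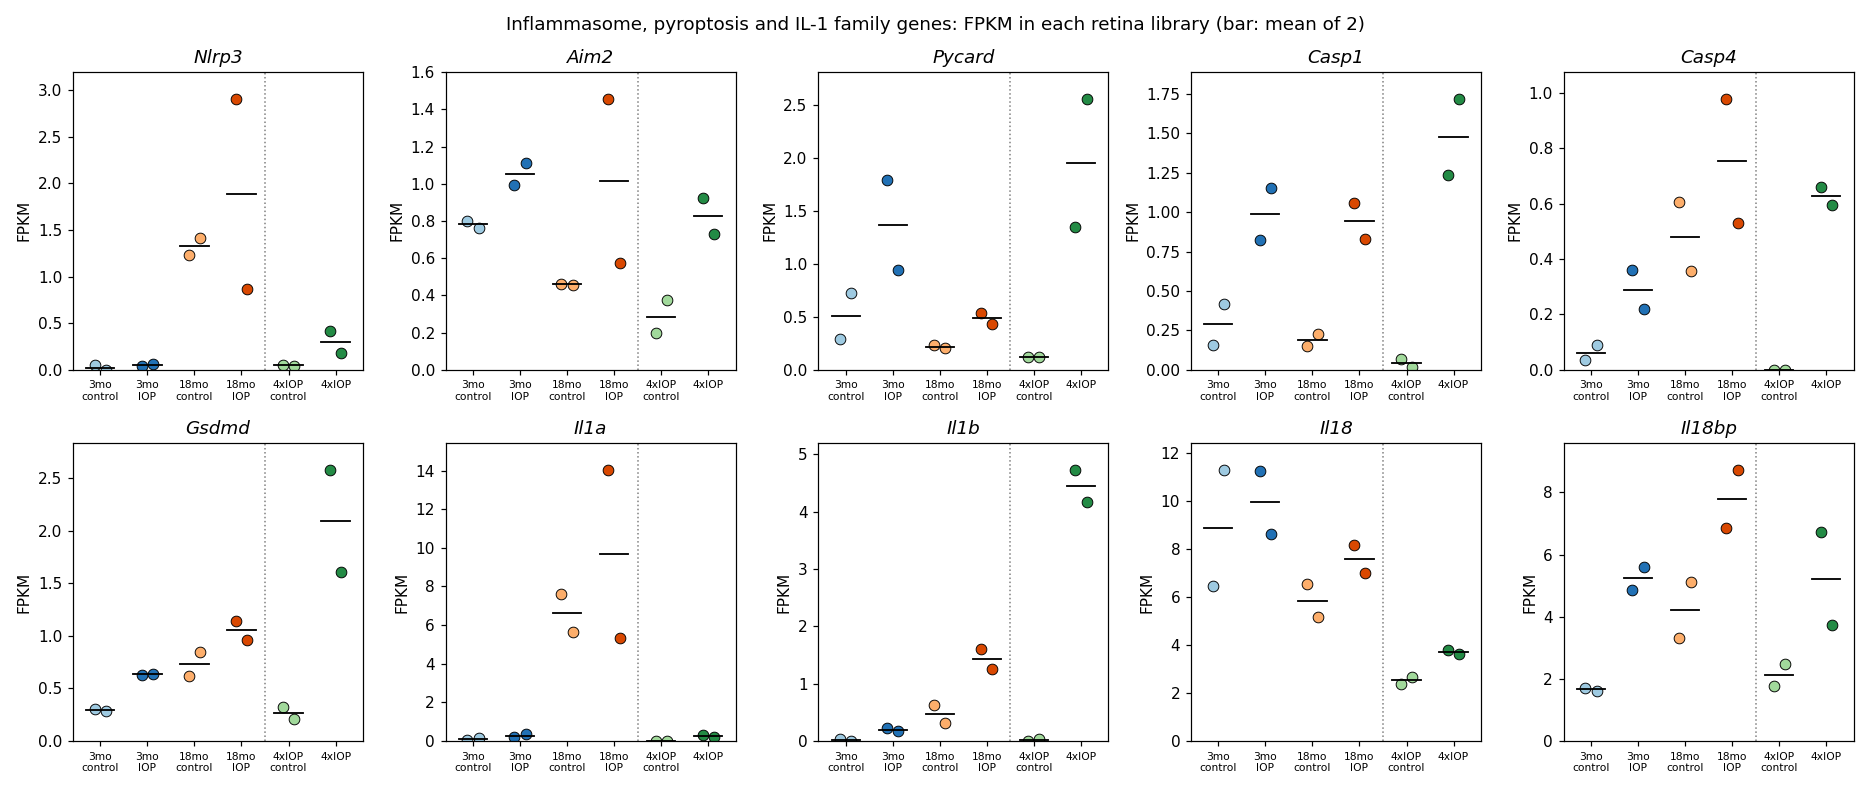
FPKM (vertical axes, linear from 0) of the 10 genes in all 12 libraries, grouped along the horizontal axes. Points are single libraries, bars are the means of 2, and the dotted line separates the 2 tables, which were normalized separately. Il1a and Nlrp3 are high in the 4 libraries of 18-month-old mice, whereas Casp1, Gsdmd and Il1b are highest in the 4xIOP libraries.

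The sensor genes behaved differently from each other. Nlrp3, which senses ion loss and lysosomal damage, gave 0.049 and 0 FPKM in 3mo control retina (8 and 0 reads, where 3 reads would be 0.016 FPKM in the second library), 0.038 and 0.061 in 3mo IOP, 1.24 and 1.42 in 18mo control retina, 2.91 and 0.867 in 18mo IOP, 0.051 and 0.042 in 4xIOP control, and 0.418 and 0.175 in 4xIOP. Every 18-month library lay above every other library of either table. The mean was 54.1 times higher in 18mo control than in 3mo control retina, a ratio that rested on 8 reads of 1 control library and was 27.1 without 3mo control replicate 2 and at least 82.7, against 3 reads, without replicate 1. This was a log2 difference of 1.80 ± 0.39 (SE) on the log2(FPKM + 0.5) scale, which understates the change of genes this low (limma, Benjamini-Hochberg adjusted p = 0.0102). It was 38.1 times higher in 18mo IOP than in 3mo IOP retina (17.5 and 58.7 times without 18mo IOP replicate 1 and 2, log2 difference 1.97 ± 0.39, adjusted p = 0.00908). In the 4xIOP table Nlrp3 was below the mean of 0.5 FPKM that a gene needed for testing. Its 4xIOP mean was 6.38 times the control mean, without overlap, and 3.76 times without 4xIOP replicate 1.

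Aim2, the sensor of double-stranded DNA in the cytosol, was at 0.801 and 0.763 FPKM in 3mo control retina, 0.991 and 1.11 in 3mo IOP, 0.461 and 0.457 in 18mo control, and 1.46 and 0.573 in 18mo IOP. It was at 0.199 and 0.374 FPKM in 4xIOP control and 0.923 and 0.731 in 4xIOP. Both IOP libraries exceeded both controls in all 3 settings. Even so, Aim2 did not pass the test in any comparison under the main settings, and its largest log2 difference was 0.76 ± 0.27 in 4xIOP (adjusted p = 0.13). Under the alternative settings with all libraries, this difference ranged from 0.51 to 1.57 (limma, adjusted p from 0.0199 to 0.251).

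Pycard encodes the adaptor ASC, which links either sensor to caspase-1. Its FPKM were 0.294 and 0.727 in 3mo control retina, 1.79 and 0.946 in 3mo IOP, 0.236 and 0.201 in 18mo control retina, 0.538 and 0.434 in 18mo IOP, 0.118 and 0.122 in 4xIOP control, and 1.35 and 2.56 in 4xIOP. The IOP libraries were higher without overlap in all 3 settings, and the 18-month libraries lay below the 3mo control and 3mo IOP libraries of the same treatment. Pycard rose 16.3-fold in mean FPKM after 4 elevations, with a log2 difference of 1.94 ± 0.28 (adjusted p = 0.000485). After a single elevation the log2 differences were 0.88 ± 0.31 at 3 months (adjusted p = 0.401) and 0.46 ± 0.31 at 18 months (adjusted p = 0.878). Pycard thus had the opposite order with age to Nlrp3, with a log2 difference of -0.89 ± 0.31 between the IOP retinas of the 2 ages that passed the adjusted p of 0.05 (0.0485) but not the log2 threshold of 1.

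Casp1, the protease at the centre of the complex, gave 0.160 and 0.419 FPKM in 3mo control retina, 0.822 and 1.15 in 3mo IOP, 0.152 and 0.228 in 18mo control retina, 1.06 and 0.829 in 18mo IOP, 0.067 and 0.016 in 4xIOP control, and 1.23 and 1.72 in 4xIOP. The 6 IOP libraries all lay above the 6 control libraries, across ages and tables. The means of the IOP groups were 3.41, 4.96 and 35.6 times those of their controls. The first was 6.17 without 3mo control replicate 2, and the last, against 5 control reads in all, was 92.2 and 22.0 without 4xIOP control replicate 1 and 2. The log2 difference of 1.86 ± 0.26 after 4 elevations passed the test (adjusted p = 0.000425), and those after a single elevation, 0.92 ± 0.26 at 3 months and 1.06 ± 0.26 at 18 months, did not (adjusted p = 0.24 and 0.173). The 18mo and 3mo controls overlapped, at a log2 difference of -0.18 ± 0.26 that turned to 0.19 with the transcript length trend removed.

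Casp4, its neighbour, encodes the caspase that binds bacterial lipopolysaccharide directly. It was at 0.034 and 0.088 FPKM in 3mo control retina, 0.360 and 0.218 in 3mo IOP, 0.605 and 0.358 in 18mo control retina, 0.979 and 0.529 in 18mo IOP, and 0.659 and 0.595 in 4xIOP. Both 4xIOP control libraries had 0 reads, where 3 reads would be 0.0527 and 0.0495 FPKM. Casp4 was therefore at least 12.3-fold higher in 4xIOP retina than a level of 3 reads in each control library. Unlike Casp1, it was higher in 18mo control than in 3mo control retina without overlap, 7.89-fold in mean FPKM and 14.2-fold without 3mo control replicate 2, and its 18-month groups overlapped with each other. Its table means were below 0.5 FPKM, so it was not tested except without the filter on low values, where the 4xIOP log2 difference was 1.17 ± 0.1 (limma, adjusted p = 0.00595) and the age difference between controls 0.80 ± 0.21 (adjusted p = 0.0375, below the log2 threshold).

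Gsdmd, which encodes the pore former cut by both caspases, was at 0.301 and 0.285 FPKM in 3mo control retina, 0.626 and 0.640 in 3mo IOP, 0.621 and 0.848 in 18mo control retina, 1.15 and 0.964 in 18mo IOP, 0.328 and 0.214 in 4xIOP control, and 2.58 and 1.61 in 4xIOP. It was higher in IOP than in control retina without overlap in all 3 settings, and the 18mo control libraries reached the level of the 3mo IOP libraries. The rise after 4 elevations was 7.72-fold in mean FPKM (log2 difference 1.73 ± 0.26, adjusted p = 0.000594). After a single elevation it was 2.16-fold at 3 months and 1.44-fold at 18 months, with log2 differences of 0.51 ± 0.22 and 0.34 ± 0.22 that did not pass the test (adjusted p = 0.554 and 0.854).

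Among the cytokine genes, Il1a showed the widest range. Its product, interleukin-1 alpha, needs no caspase-1 to become active and is released as an alarm signal by damaged cells. Il1a was at 0.074 and 0.171 FPKM in 3mo control retina, 0.187 and 0.366 in 3mo IOP, 7.60 and 5.64 in 18mo control retina, 14.02 and 5.34 in 18mo IOP, 0.013 and 0 in 4xIOP control, and 0.290 and 0.217 in 4xIOP. All 4 libraries of 18-month-old mice stood above the 8 others. The mean rose 54.1-fold between 3mo and 18mo control, or 89.5-fold without 3mo control replicate 2 (log2 difference 3.51 ± 0.4, adjusted p = 0.00376) and 35-fold between 3mo and 18mo IOP, or 19.3-fold without 18mo IOP replicate 1 (log2 difference 3.58 ± 0.4, adjusted p = 0.00228). These calls held under all alternatives tried, with log2 differences of 2.75 to 5.77 and 2.92 to 5.04. The 18-month IOP libraries lay on either side of their controls, so a single elevation gave a log2 difference of 0.38 ± 0.4 there (adjusted p = 0.993). After 4 elevations Il1a was below the level needed for testing: 50 reads in 4xIOP stood against 1 read in the controls, a ratio of 41.7 per mapped tag with an exact 95% counting interval of 7.15 to 1680.

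Il1b, whose precursor is the main cytokine substrate of caspase-1, had a different order of groups from its neighbour. It was at 0.036 and 0 FPKM in 3mo control retina (2 reads in all), 0.220 and 0.179 in 3mo IOP, 0.630 and 0.319 in 18mo control retina, 1.60 and 1.26 in 18mo IOP, 0 and 0.035 in 4xIOP control (2 reads in all), and 4.72 and 4.17 in 4xIOP. The groups of the first table were separated in that order without overlap, and the 4xIOP libraries were the highest of all 12. The log2 difference of 3.26 ± 0.22 after 4 elevations was the largest of the 7 genes tested in that comparison (adjusted p = 8.38e-07), and in reads per mapped tag the ratio was 246 (exact 95% counting interval 67.9 to 2040). The log2 difference was 0.43 ± 0.25 after a single elevation at 3 months (adjusted p = 0.785) and 1.00 ± 0.25 at 18 months (adjusted p = 0.179), and the ratio of means at 18 months was 3.01. Between the ages it was 0.89 ± 0.25 in control retina (adjusted p = 0.0229, short of the log2 threshold) and 1.46 ± 0.25 in IOP retina (adjusted p = 0.00674). Under the alternative settings with all libraries, the difference between controls ranged from 0.53 to 4.63, on both sides of the log2 threshold. Counting intervals cover counting error only, and 76.5% and 70.2% of the read numbers from 2 to 21 in the 2 tables were even, so mates of a pair may both have been counted and the intervals may be too narrow.

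Il18 and Il18bp are a cytokine and its soluble antagonist. Il18 was at 6.48 and 11.3 FPKM in 3mo control retina, 11.3 and 8.65 in 3mo IOP, 6.54 and 5.18 in 18mo control retina, 8.18 and 7.02 in 18mo IOP, 2.39 and 2.68 in 4xIOP control, and 3.79 and 3.64 in 4xIOP. The IOP libraries were higher without overlap at 18 months and after 4 elevations but not at 3 months. No comparison passed the test, with log2 differences of 0.19 ± 0.27 at 3 months, which turned to -0.01 with median-of-ratios size factors, 0.35 ± 0.27 at 18 months and 0.48 ± 0.19 after 4 elevations (adjusted p = 0.99, 0.927 and 0.217). Between the controls of the 2 ages the log2 difference was -0.52 ± 0.27 (adjusted p = 0.146), and 0.14 with the transcript length trend removed.

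Il18bp moved with IOP and with age. It was at 1.72 and 1.61 FPKM in 3mo control retina, 4.86 and 5.61 in 3mo IOP, 3.33 and 5.13 in 18mo control retina, 6.85 and 8.71 in 18mo IOP, 1.78 and 2.47 in 4xIOP control, and 6.71 and 3.73 in 4xIOP. The IOP libraries exceeded their controls without overlap in all 3 settings, and the 18mo control libraries exceeded those of 3mo control. It was the 1 gene of the 10 called after a single elevation at 3 months, with a 3.15-fold higher mean (log2 difference 1.41 ± 0.23, adjusted p = 0.0457). That call was lost with the replicate block (adjusted p = 0.111), with a pseudocount of 1, no filter, size factors, voom, the length trend removed or only the 2 groups fitted (adjusted p = 0.0563 to 0.118), and, at adjusted p of 0.054 to 0.305, when either 3mo control, either 3mo IOP or either 18mo control library was left out. After 4 elevations the log2 difference was 1.09 ± 0.26 (adjusted p = 0.0168), and this call too was lost without 4xIOP control replicate 1 (0.89, adjusted p = 0.14) or 4xIOP replicate 1 (0.70, adjusted p = 0.145), with no filter (adjusted p = 0.171) and, at log2 differences of 0.96 and 0.97, with a pseudocount of 1 and with size factors. Between 3mo and 18mo control it was 1.1 ± 0.23 (adjusted p = 0.00914), a call lost without 18mo control replicate 2 (0.83, adjusted p = 0.0724), with a pseudocount of 1 (0.95) and with size factors (0.97).

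**Figure D2:**
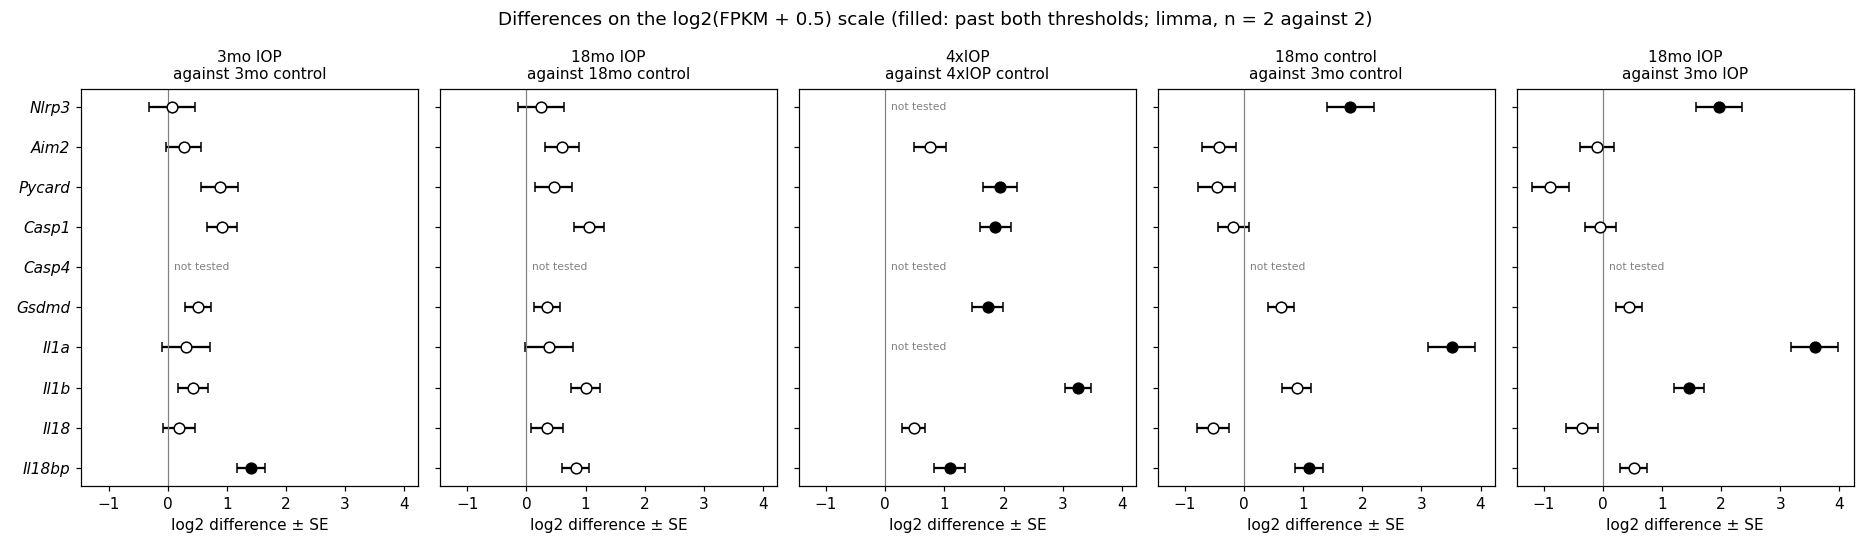
Differences of the 10 genes between groups on the log2(FPKM + 0.5) scale (horizontal axes) with their standard errors from limma, 2 libraries against 2. Filled points passed both thresholds, and "not tested" marks genes with a table mean under 0.5 FPKM. Il1a (3.51 and 3.58) and Nlrp3 (1.80 and 1.97) lie farthest to the right in the age comparisons, and Il1b (3.26) after 4 elevations.

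The first question of the design is what a single mild elevation does to the retina of a young mouse. Of the 10 genes, Il18bp was called higher and no gene was called lower, and 9 could be tested, because Casp4 was too low. The call of Il18bp did not hold with the replicate block (adjusted p = 0.111) or under most other settings, as given above. Called means an adjusted p no higher than 0.05 together with a log2 difference of 1 or more, and by that rule 0.568% of the 13731 genes tested were called higher. Casp1, Pycard and Gsdmd also had unadjusted p-values under 0.05 in the limma fit, as 1169 of the 13731 genes did, with log2 differences of 0.92, 0.88 and 0.51. Casp1 reached the test only through its IOP libraries, since every control library of the first table was below 0.5 FPKM, so nothing is read from its p-value. Counting all 10 genes, 8 were higher in both IOP libraries than in both controls, against 25.9% of the 20302 genes with any reads, and Nlrp3 and Il18 overlapped. The median log2 difference of all tested genes was 0.13 here, and -0.05 with median-of-ratios size factors, so small positive values are near the centre of this comparison. Cell type markers moved in the same libraries: the 16 microglial markers summed to 207 and 151 FPKM in 3mo IOP against 52.4 and 88.9 in 3mo control (15 of 15 tested with a positive log2 difference, none called, median 0.9), and the 5 astrocyte markers to 38.2 and 41.8 against 8.25 and 13.4 FPKM, with Gfap, which reactive glia express, called higher (3.44 ± 0.4, limma adjusted p = 0.0271). Their part in these values was not tested.

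The same elevation at 18 months left no gene of the 10 past the test, against 0.117% of all tested genes called higher. The nearest were Casp1 (log2 difference 1.06, unadjusted p = 0.0034), Il1b (1.00, 0.00405) and Il18bp (0.83, 0.00672) in the same limma fit, which were the 3 of the 9 tested with an unadjusted p under 0.05, as were 1297 of all 13731 genes. Casp1 was below 0.5 FPKM in every control library of the first table. Il1b had a table mean of 0.53 FPKM, carried mainly by 18mo IOP. Both reached the test through libraries in which they were high, so this count is a description. Voom on recovered reads called none of the 10 genes either. Higher in both IOP libraries without overlap were 7 of the 10, against 30% of all genes, and Nlrp3, Casp4 and Il1a were not among them. For these 3 genes the 18mo IOP libraries differed: replicate 1 had 2.91, 0.979 and 14.02 FPKM and replicate 2 had 0.867, 0.529 and 5.34. Without replicate 1 the log2 differences of Nlrp3 and Il1a were -0.42 and -0.27. The microglial markers P2ry12 (6.96 and 1.46 FPKM) and Tmem119 (3.52 and 0.619) split these libraries in the same direction, as did the summed level of 16 microglial markers (459 and 209). The split was not limited to microglia: the markers of retinal ganglion cells summed to 89.9 and 32.0 FPKM, those of amacrine and horizontal cells to 129 and 45.2, of bipolar cells to 996 and 564 and of cones to 1230 and 678, whereas rod (14300 and 17400), astrocyte (45.1 and 105) and lens markers (6.43 and 21.3) were higher in replicate 2. Between 18mo IOP and 18mo control, all 10 Muller glia markers had positive log2 differences (median 0.61, none called, with sums of 3120 to 3230 against 1750 to 2170 FPKM), and the 5 erythroid markers tested had negative ones (median -2.37, none called, 44.3 to 54.3 against 166 to 426 FPKM). The part of these markers in the differences was not tested.

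Whether IOP acted differently at the 2 ages was tested by the interaction of IOP with age. None of the 9 genes tested had an adjusted p of at most 0.05 (0% of all 13731 genes did, and 218 had an unadjusted p under 0.05), and the unadjusted p-values of the 9 ranged from 0.11 to 0.903 in limma. Voom on recovered reads also called no gene. No difference between the ages in the response of these genes was therefore detected, and the absence of a call does not show that the responses were alike.

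The genes went in different directions between the ages. The libraries of the ages also differed in transcript length and in pigment epithelium markers, as given above, and the part of these was not tested. Between the untreated eyes, Il1a, Nlrp3 and Il18bp were called higher at 18 months (3 of the 9 tested), and 11.6% of all tested genes were called higher in this comparison. Nlrp3 and Il1a reached the test only through their 18-month libraries, since both were below 0.5 FPKM in every 3mo control and 3mo IOP library, so this count is a description. Of all calls in it 50.1% were higher, or 35% with median-of-ratios size factors, which moved the median log2 difference of all genes from 0.16 to 0.01, and Il18bp lost its call under them (log2 difference 0.97) and with a pseudocount of 1 (0.95). In both libraries without overlap, 6 of the 10 were higher at 18 months, against 36.5% of all genes, namely the 3 called together with Casp4, Gsdmd and Il1b. Aim2 and Pycard (2 of 10) were lower without overlap, against 27.7% of all genes, at log2 differences of -0.42 ± 0.29 and -0.46 ± 0.31 that did not pass the test. Without 18mo control replicate 2 the calls of Nlrp3 (log2 difference 1.73, adjusted p = 0.0621) and Il18bp (0.83, adjusted p = 0.0724) were lost and 1 call was left, that of Il1a. Without 18mo control replicate 1 that of Nlrp3 was lost (1.87, adjusted p = 0.0505). Without 3mo control replicate 2, which had the highest ratio of short to long transcripts, the ratios of means were 27.1 for Nlrp3, 89.5 for Il1a and 2.47 for Il18bp.

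Between the IOP-treated eyes of the 2 ages, Il1a, Nlrp3 and Il1b were called higher at 18 months, and 10.2% of all tested genes were. Here all 3 reached the test only through their 18-month libraries, so nothing is read from the count. Without overlap 6 of the 10 were higher, against 34.5% of all genes, and Pycard and Il18 were lower, against 29.9%. The call of Nlrp3 was lost without either 3mo IOP library (adjusted p = 0.0605 and 0.0568) and that of Il1b without 3mo IOP replicate 2 (adjusted p = 0.0534). This comparison and the one before share no libraries, but each uses the same libraries as an IOP comparison, so their values are given side by side and not as separate evidence.

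Animals of different ages also differed in other transcripts that stand beside these results. Fos, an immediate early gene, was at 2.66 to 6.66 FPKM in the 3mo control and 3mo IOP libraries and at 104 to 547 FPKM in the 18-month libraries, and it was picked out after its values had been seen. In 4xIOP control it was at 11.1 and 12.4 FPKM and in 4xIOP at 10.6 and 9.71. The 16 microglial markers summed to 52.4 and 88.9 FPKM in 3mo control and 152 and 169 in 18mo control, and 7 of the 15 tested were called higher, among them Csf1r, Cx3cr1, C1qa and C1qb. In bulk tissue, more cells of a type and more RNA per cell cannot be told apart. Markers of other cell types moved with age as well. All 6 endothelial markers were called higher in 18mo control retina (median log2 difference 2.04, with a sum of 54.8 to 56.8 FPKM against 9.0 to 11.5), as were 5 of 10 Muller glia markers (median 0.96) and 4 of 8 bipolar cell markers (median 0.82). Of all tested genes 11.6% were called higher. Cdh5, at 0.188 and 0.053 FPKM in 3mo control and 0.324 and 0.121 in 3mo IOP, reached the test only through the 18-month libraries. The endothelial count is therefore a description. Of the retinal ganglion cell markers 5 of 9 were called lower (median -1.32), led by Sncg and Nefl, and all 7 pigment epithelium markers that were tested were called lower (median -3.27), against 11.6% of all tested genes called lower. Some of the pigment epithelium markers, such as Lrat, reached the test only through the 3mo control and 3mo IOP libraries, so nothing is read from that count. The part of these transcripts in the age difference was not tested.

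After 4 elevations, against their own fellow eyes, the adaptor, the protease, the pore former and the cytokine Il1b were high together. Il1b, Pycard, Casp1, Gsdmd and Il18bp were called higher (5 of the 7 tested), against 5.45% of all 13718 tested genes. Aim2 and Il18 were higher without passing the test. Several of the genes reached the test only through their 4xIOP libraries, since their control levels were below 0.5 FPKM, so the count is a description. Without the filter on low values all 10 could be tested and 5 were called, Casp4 in place of Il18bp, against 3.24% of 19593 genes. All 10 were higher in both 4xIOP libraries than in both controls, against 28.1% of all genes. The ratios of means were lowest for Il18 (1.47), Il18bp (2.46) and Aim2 (2.89), and the ratio of reads was largest for Il1b, as given above. The 4xIOP and the single-elevation results come from tables that were normalized separately and from different animals, so the number of elevations was not compared by a test.

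Markers of blood-derived cells moved with these genes. The 14 leukocyte markers summed to 1.88 and 1.43 FPKM in 4xIOP control, where Cd3e, Ly6g and Chil3 were at 0 in both libraries, and to 185 and 173 FPKM in 4xIOP. Of the 14, 10 could be tested and were called higher, but with control levels this low most reached the test through their 4xIOP libraries, so nothing is read from that count. Lyz2 (113 and 107 FPKM against 0.837 and 0.764), S100a8 (20.2 and 26.5 against 0.13 and 0), S100a9 and Plac8 led that list. Ccr2, a receptor of inflammatory monocytes, was at 4.18 and 3.03 FPKM against 0.014 and 0.013, and the pan-leukocyte gene Ptprc at 4.34 and 2.97 against 0.044 and 0.041. The 16 microglial markers rose as well, from 25.3 and 23.8 to 243 and 248 FPKM in sum. Of the 14 tested, 12 were called higher, against 5.45% of all tested genes. Cx3cr1 was at 3.68 and 4.8 against 0.563 and 0.586, and P2ry12 at 0.869 and 1.215 against 0.534 and 0.541. Lens markers (8 genes) summed to 50.5 and 113 FPKM in 4xIOP against 4.84 and 0.578, while those of the pigment epithelium were lower, as given above. Summed rod markers (10 genes) were at 5410 and 8140 FPKM in 4xIOP against 11200 and 11700, and cone markers (7 genes, 3 called lower) at 241 and 358 against 631 and 621. Astrocyte markers summed to 57.5 and 49.7 FPKM against 9.62 and 8.87, with Gfap called higher (3.76 ± 0.24) as it was at 18 months after a single elevation (3.37 ± 0.4), and endothelial markers to 53.5 and 58.8 against 25.3 and 31.3. After a single elevation the leukocyte sum was 81.9 and 22.9 against 8.69 and 16.9 FPKM at 3 months and 56.4 and 55.5 against 14.4 and 8.72 FPKM at 18 months. Lyz2 made up most of these IOP sums. It was at 71.4 and 18.0 against 5.48 and 5.12 FPKM at 3 months. At 18 months it was at 43.0 and 45.9 against 10.7 and 4.13 FPKM. None of the 7 leukocyte markers tested was called at either age. The part of all these markers in the rise of the inflammasome genes was not tested.

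**Figure D3:**
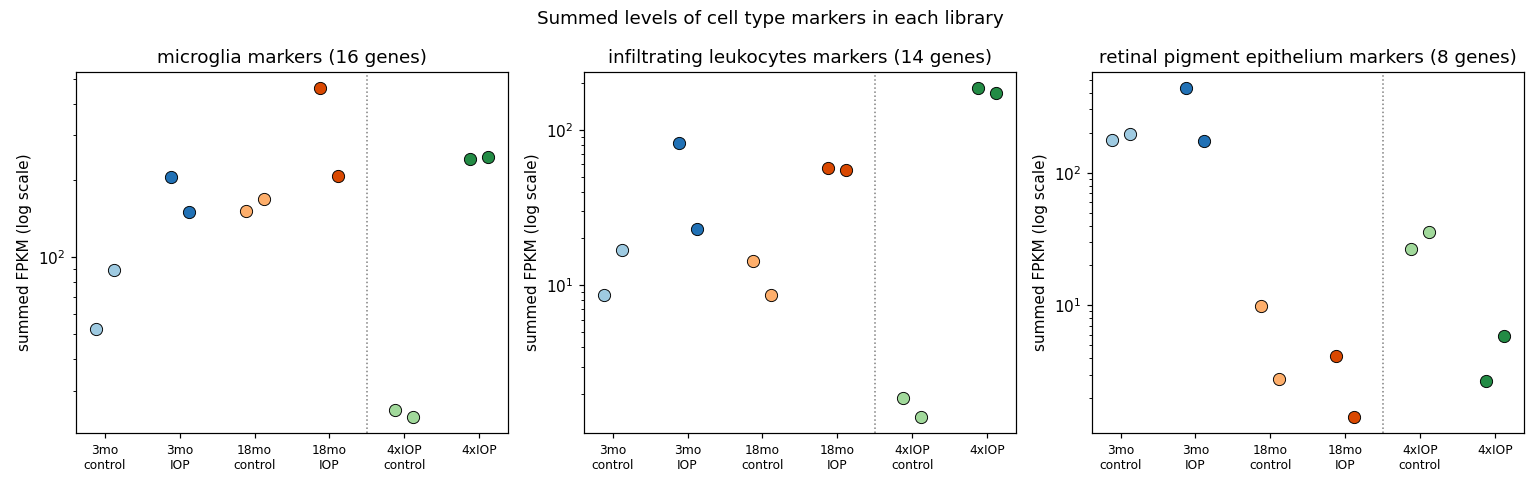
Summed FPKM (vertical axes, log scale) of the markers of microglia, infiltrating leukocytes and retinal pigment epithelium in each of the 12 libraries. Points are single libraries. The leukocyte sum is lowest in 4xIOP control (1.88 and 1.43) and highest in 4xIOP (185 and 173), and the pigment epithelium sum is highest in the 3mo control and 3mo IOP libraries.

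The rest of the pathway was read from 6 lists that held 91 gene symbols, alternative symbols included, of which 84 were in the tables. After 4 elevations 26 of the 54 tested were called higher and 1 lower (0.693% of all tested genes were called lower), and after a single elevation 5 of 52 at 3 months and 0 of 52 at 18 months. Between the ages 12 of 52 were called higher and 1 lower, in untreated as in IOP-treated eyes. Genes with control levels under 0.5 FPKM reached the test after 4 elevations only through their 4xIOP libraries. The lists are described by these counts beside the share of all genes given above, and no test was run on a list.

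Upstream, among sensors and adaptors (15 genes), 4 could be tested and all 4 were called higher after 4 elevations, of which Zbp1, Nlrc5 and Ifi204 reached the test only through their 4xIOP libraries, so that count is a description. Zbp1, which senses Z-form nucleic acids, went from 0.032 and 0.122 to 4.30 and 1.86 FPKM (log2 difference 2.55 ± 0.31, limma adjusted p = 0.000111), and Nlrc5, a regulator of MHC class I genes, from 0.047 and 0.14 to 8.59 and 2.95. Ifi204, a DNA sensor, and Ddx58, which encodes the RNA sensor RIG-I, were the others. Zbp1 and Ddx58 were also called at 3 months after a single elevation, at 2.67 ± 0.37 and 1.28 ± 0.19 (adjusted p = 0.0325 for both), and Aim2 in the same libraries was at 0.27 ± 0.29. In the first table Zbp1 was at 0.062 and 0.054 FPKM in 3mo control and 0.118 and 0.524 in 18mo control. It reached the test through its IOP libraries, so nothing is read from its call at 3 months. Zbp1 was called lower in 18mo IOP than in 3mo IOP retina (-1.07 ± 0.37, adjusted p = 0.0479). Among 11 activating cofactors in the tables, the guanylate-binding protein genes Gbp2, Gbp3 and Gbp5 and the STING gene Tmem173 rose after 4 elevations, with log2 differences of 3.46, 2.62, 2.04 and 1.75. Gbp2 was also called at 3 months after a single elevation (2.36 ± 0.33, adjusted p = 0.0325). Txnip, whose product binds NLRP3, was the cofactor called higher with age in both settings (1.71 ± 0.28 in control and 1.23 ± 0.28 in IOP retina), as Nlrp3 was, and Brcc3, which encodes an enzyme that removes ubiquitin from NLRP3, was lower in 18mo control (-1.38 ± 0.18, adjusted p = 0.00484).

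Downstream, Ninj1, whose product ruptures the membrane after gasdermin pores have formed, went from 2.22 and 2.56 to 7.75 and 6.89 FPKM after 4 elevations (log2 difference 1.44 ± 0.2, adjusted p = 0.000299). Casp8 and Casp12 were called with it, at 1.5 ± 0.25 and 1.43 ± 0.27. After a single elevation Ninj1 had log2 differences of 0.76 ± 0.2 at 3 months and 0.78 ± 0.2 at 18 months that did not pass the test (adjusted p = 0.2 and 0.188). Of the receptors and antagonists, the signalling receptor Il1r1 (1.13 ± 0.21), the decoy receptor Il1r2 (1.52 ± 0.26) and the receptor antagonist Il1rn (1.42 ± 0.38) were called higher after 4 elevations. Il1r2 and Il1rn reached the test only through their 4xIOP libraries, Il1rn mostly through replicate 1 (1.65 and 0.364 FPKM, against 0 and 0.02), so nothing is read from these calls. Il1r1 was also called higher in 18mo control than in 3mo control retina (1.02 ± 0.24, adjusted p = 0.0125). Of the receptor signalling genes 5 of 16 tested were called higher there, led by Rela, Ikbkb, Irak2 and Mapk14 (1.23 down to 1.05), and Irak2, Rela and Ikbkb were also called between the IOP groups. After 4 elevations the adaptor gene Myd88 (1.28 ± 0.21) and Irak3 (1.21 ± 0.27), which encodes an inhibitor of the pathway, were called higher.

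Among genes that interleukin-1 is known to induce, 9 of the 11 tested were called higher after 4 elevations, against 5.45% of all tested genes. Some of them, such as Saa3 and Ccl2 (0.188 and 0 FPKM in 4xIOP control), reached the test only through their 4xIOP libraries, so this count is a description. The acute-phase gene Saa3 went from 0 in both controls to 126 and 259 FPKM, Lcn2 from 1.43 and 0.951 to 284 and 825 FPKM, and Serpina3n from 0.593 and 1.34 to 118 and 289 FPKM, and Ccl2 was called at 3.0 ± 0.26. Tnfaip3, a brake on NF-kB signalling, was called lower instead, at 14.8 and 18.4 against 53.5 and 66.0 FPKM (log2 difference -1.82 ± 0.27, adjusted p = 0.000598), and is named because it was the exception. At 3 months a single elevation raised Serpina3n (106 and 120 against 8.18 and 3.04 FPKM) and Ccl2 (5.72 and 5.06 against 0.301 and 0.105). At 18 months 0 of 13 were called, although Serpina3n was at 85.6 and 288 against 7.73 and 8.71 FPKM (log2 difference 4.18 ± 0.56, adjusted p = 0.0519). Between 3mo and 18mo control 5 of 13 were called higher, led by Cxcl10 (2.34 ± 0.51), Icam1 (2.15 ± 0.22), Cxcl2 (1.74 ± 0.48) and Nfkbiz (1.65 ± 0.35). Between 3mo and 18mo IOP 8 of 13 were, led by Cxcl2 (3.86 ± 0.48), Cxcl1 (2.9 ± 0.57), Nfkbiz (2.72 ± 0.35) and Cxcl10 (2.48 ± 0.51). Cxcl2 was at 0 to 0.205 FPKM in the 3mo control and 3mo IOP libraries and reached the test only through the 18-month libraries, and Icam1 and Cxcl10 were below 0.5 FPKM in 3mo control, so these counts with age are descriptions. These genes answer to other signals too, and what induced them was not tested.

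**Figure D4:**
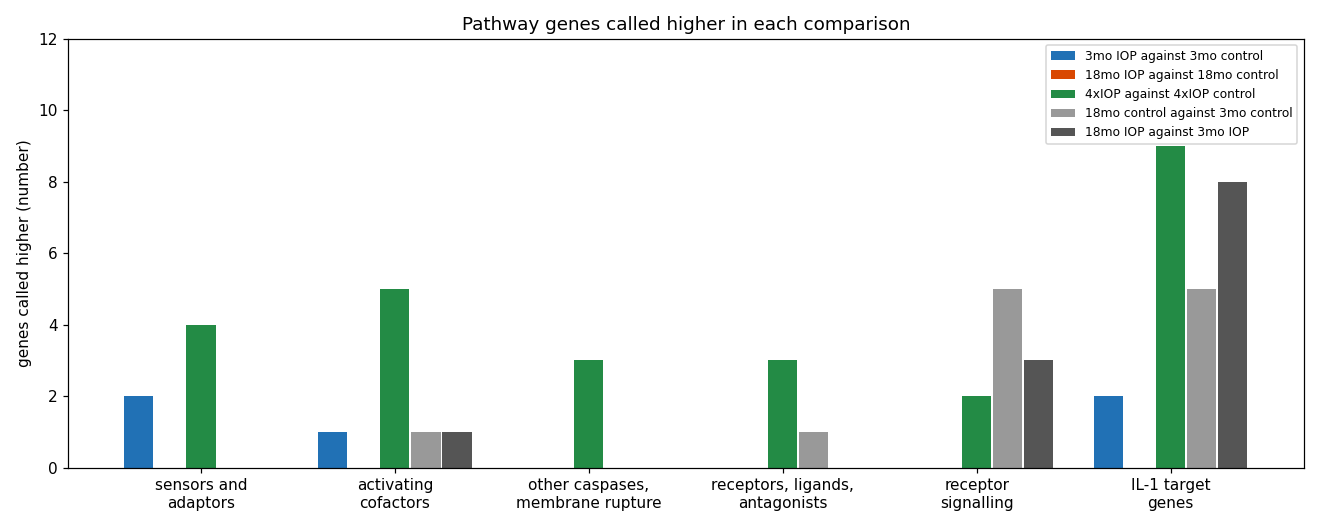
Number of genes called higher (vertical axis, from 0) in 6 lists of pathway genes (horizontal axis) for each of the 5 comparisons (bar colours). The 4xIOP comparison has the tallest bar in 5 of the lists, up to 9 of 11 tested for the interleukin-1 targets, and the age comparison of controls has it for receptor signalling (5 of 16).

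The genes whose log2(FPKM + 0.5) followed each of the 9 tested genes most closely over the 8 libraries of the first table were also read off, as a description in which libraries of 1 group share their treatment. Il1a was followed by Abcb1a, Pmaip1 and Tox3 (Pearson's r = 0.993, 0.993 and 0.992), Nlrp3 by Pdgfb, 4933431E20Rik and Sowaha (0.99, 0.988 and 0.987), and Il1b by Nudt4, Plaur and Pcolce2 (0.993, 0.987 and 0.986). Casp1 was followed by Cap1, Vwa5a and Matn2 (0.961, 0.958 and 0.948), Pycard by Gmpr, Crip1 and Nagk (0.986, 0.98 and 0.977), and Gsdmd by Grb2, H2-T23 and Tbcd (0.993, 0.985 and 0.984). Aim2 was followed by Arhgap18, Slc5a3 and Ubtd2 (0.983, 0.966 and 0.942), Il18 most closely by Rab33b (0.986), and Il18bp by Pdzrn3, Parp12 and Yars (0.979 for all 3).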

How the data were processed

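Poly-adenylated RNA of whole retina was sequenced from 12 samples, 2 per group, with a strand-specific TruSeq kit. The authors aligned reads with STAR 2.7.8a to mm10, counted reads in exons with HOMER and kept 1 isoform per gene, and deposited FPKM values in 2 tables of 8 and 4 libraries, normalized separately. No counts were used as deposited, and multiplying FPKM by transcript length gave whole reads for 100% of the low values checked (tolerance 0.1 read), from which depth was taken. Libraries of a group differed by more than sampling noise (chi-square per degree of freedom 19.8 to 174.4), so none was counted as a duplicate.

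From these values, limma 3.58.1 in R 4.3.3 (lmFit, eBayes with trend) was fitted to log2(FPKM + 0.5) of all genes with a table mean of at least 0.5 FPKM, all groups of a table together without a block. P-values were adjusted by Benjamini-Hochberg over all genes tested, and a gene was called when the adjusted p was 0.05 or lower and the log2 difference 1 or more in size. The interaction was called on adjusted p alone. SE is limma's moderated standard error. The fit was tested on simulated data. The labels do not tie eyes by number, and deviations of same-numbered libraries correlated at r = -0.275, -0.53 and -0.29 over genes, so the numbers were not used as pairs. Alternatives were pseudocounts of 0.1 and 1, no filter, a mean of 2 FPKM, median-of-ratios size factors, voom on recovered reads, a replicate block, removal of a transcript length trend, fits of only 2 groups, adjusted p alone and leaving out each library.

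The genes, pathway lists and marker lists were chosen with earlier results of these data known. Named genes were all 10 members, then of each pathway list the called genes (at most 4 by size) or otherwise the 2 with the smallest unadjusted p (of lists without a call few are given), and the 3 genes most like each member (for Il18 only the closest is given, and a further one is not reported here). The authors' ATAC-seq data were not analysed here.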

Additional observations from a re-analysis of the deposited data

How the results depend on the processing

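Of 711 log2 differences of single genes under the alternatives, 666 kept their direction and side of the thresholds, 26 lost a call, 7 gained one and 12 turned sign. Of the counts of genes called, the 1 call at 3 months (Il18bp) became 0 with a pseudocount of 1, no filter, size factors, voom, the replicate block, the length trend removed or only the 2 groups fitted, and 0 to 1 when a library was left out. The 3 calls between controls of the 2 ages became 5 with a pseudocount of 0.1, voom or adjusted p alone, 4 with the length trend removed, 2 with a pseudocount of 1, a mean of at least 2 FPKM or size factors, and 1 to 3 without a library. The 3 between IOP groups became 1 with a mean of at least 2 FPKM, as did the 5 after 4 elevations become 2, because fewer of the genes are then tested, and the former was 1 to 3 without a library. The counts at 18 months and for the interaction were 0 under every alternative tried, and those after 4 elevations were 4 to 6 under all others. Signs turned for Il18 at 3 months (-0.01 with size factors, -0.19 to 0.57 without a library), for Casp1 and Il18 between controls (0.19 and 0.14 with the length trend removed, and Casp1 -0.42 to 0.06 without a library), and for Casp1 and Il18 between IOP groups (0.35 and 0.33 with the length trend removed). Without a library Nlrp3 ranged from -0.42 to 0.9 and Il1a from -0.27 to 1.04 in 18mo IOP, and Aim2 from -0.53 to 0.34 and Casp1 from -0.2 to 0.12 between IOP groups. The causes of these turns were not tested. With the replicate block, 20, 0 and 767 of all genes were called higher after IOP at 3 months, at 18 months and after 4 elevations, against 78, 16 and 748 without it, and apart from Il18bp at 3 months it changed no call of the 10. A crossed pairing, chosen after seeing the data, called 298, 298 and 780. The depth limits the lowest genes: 3 reads correspond to 0.0129 to 0.0663 FPKM.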
